A study of Mus musculus with 2 samples.

Results

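The 10 genes described here encode the smooth-muscle contractile apparatus of the mammary myoepithelium and were followed cell by cell in mouse mammary gland. They were taken by symbol from the gene list of the deposited count tables, and all 10 of 10 were found among 31053 genes: Acta2, Actg2, Tagln, Cnn1, Myh11, Myl9, Mylk, Tpm1, Tpm2 and Oxtr. Levels were read in basal cells, gated by the basal keratins Krt5 and Krt14, which had to exceed the luminal keratins Krt8 and Krt18, of which there were 992 among 3407 cells in one library and 847 among 5435 in the other. Cells that met a second gate were left out, and none of the 10 genes took part in a gate.

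The study has 2 single-cell RNA libraries of primary mammary cells from C57BL/6 mice, 1 per group. The control library, labelled Ctrl, came from miR-200c/141-flox/flox mice, in which both alleles of a microRNA locus are flanked by recombination sites. The library labelled cKO came from K8-CreERT2;miR-200c/141-flox/flox mice, which add a tamoxifen-inducible Cre recombinase under the promoter of keratin 8, a keratin of luminal cells; the control lacks this transgene. Both groups received tamoxifen at 8 to 10 weeks of age per the protocol (the age label itself reads 8 weeks), and FACS-enriched gland cells were collected 4 weeks after the injection. The labels do not say how many mice went into a library. With 1 library per group there is no test between groups, and every 95% interval below covers counting error only, not the spread between mice. Recombination of the microRNA locus was not analysed here.

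Myoepithelial cells are the contractile outer layer of the mammary bilayer, epithelial cells that carry basal keratins together with a smooth-muscle program. At suckling, oxytocin binds its receptor on these cells, calcium rises, calmodulin activates myosin light-chain kinase, and phosphorylated myosin pulls on smooth-muscle actin filaments, which squeezes milk from the alveoli. Many genes of this program carry CArG boxes, the DNA element bound by serum response factor (SRF), in their promoters.

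Promoter stretches are shown for the 2 members in which the CArG box was found in the 250 bases before the start given by RefSeq (GRCm38.p6, strand of the gene). Entries were matched by symbol for 7 of the 10 members, and not for Actg2, Tagln and Myh11. Capitals mark matches on either strand to the CArG box, allowing 1 mismatch in its 6 central positions. The Acta2 window has 2 such matches, at 84 and 34 bases before the start, and each is shown with its neighbouring bases (chr19:34255438-34255467 and chr19:34255388-34255417, minus strand). GENCODE M21 places 217 of the 250 bases of that window inside the annotated untranslated first exon of Acta2 (chr19:34255290-34255590), so the 2 annotations put the start at different bases. The Myl9 stretch is chr2:156775214-156775419, plus strand, which ends at the base before the GENCODE gene (chr2:156775420-156781658), with an exact match at 161 bases and a match with 1 mismatch at 99 bases before the RefSeq start.
Acta2 at 84: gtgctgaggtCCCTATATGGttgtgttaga
Acta2 at 34: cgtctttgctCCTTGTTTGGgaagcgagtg
Myl9: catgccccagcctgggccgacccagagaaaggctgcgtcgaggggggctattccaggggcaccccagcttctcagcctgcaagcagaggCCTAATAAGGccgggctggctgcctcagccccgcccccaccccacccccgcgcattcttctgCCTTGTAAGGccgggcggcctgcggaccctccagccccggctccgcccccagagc
Among 32851 promoter windows of this length, 1.47% hold an exact match, 8.59% hold a match with up to 1 mismatch, and 0.67% hold 2 or more. The windows of Cnn1, Mylk, Tpm1, Tpm2 and Oxtr hold none, which says only that these letters are not in these 250 bases.

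The basal label was checked against basal markers that the gate did not use. Krt17, a basal keratin, stood at 5332 UMIs (unique molecular identifiers, 1 per captured RNA molecule) per 1000000 UMIs (CPM) in Ctrl and 4168 in cKO basal-gated cells. Trp63, the transcription factor of basal epithelium, stood at 70.1 and 31.7 CPM. Of the 6 basal markers outside the gate, 5 were at least 4-fold above luminal-gated cells in each library. The exception, Itgb4, was 2.15-fold above them in Ctrl and 1.27-fold in cKO. These markers also moved between the libraries, with sums of 5562 CPM in Ctrl and 4352 in cKO. At 1.5-fold, 2 of the 6 were lower in cKO, Trp63 and Itgb4 (53.4 and 29.8 CPM). Vsnl1 (5.99 and 11.1 CPM) was higher. The basal-gated cells held 12014468 UMIs in Ctrl (median 10482 per cell) and 7124321 in cKO (median 7566). No basal-gated barcode occurred in both libraries, and 5 barcodes did among all cells kept. Of 9 perivascular markers, which would mark the other contractile cells of the gland, Higd1b, Kcnj8, Abcc9 and Ndufa4l2 had no UMI in basal-gated cells of either library, and all 9 together summed to 2.75 CPM in Ctrl and 2.81 in cKO. Those 4 genes also serve in the perivascular gate and Dcn in the fibroblast gate, and cells meeting a second gate had been left out, which can lower these sums. Other lineages moved between the libraries: summed fibroblast markers stood at 178 and 80.1 CPM, nearly all Dcn, the 5 endothelial markers at 2.25 and 6.04, and the 6 luminal markers, which include the Krt8 and Krt18 of the gate, at 4048 and 5074, mostly Epcam. The 5 progenitor markers summed to 468 and 120 CPM, mostly Trf, and the 7 immune markers to 59.8 and 29.3, mostly Cd74, with Ptprc and Cd3e at 0. Their part in the differences below was not tested.

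Basal-gated cells held 10058 CPM of the 10 genes together in Ctrl and 15598 in cKO. Of the 10, 7 were at least 1.5-fold higher in the cKO library (Acta2, Tagln, Cnn1, Myh11, Myl9, Tpm1 and Oxtr), none was at least 1.5-fold lower, and Mylk, Actg2 and Tpm2 lay between. The same distance upward was passed by 7.52% of the 9511 genes with at least 50 UMIs in these cells, and downward by 6.93%. The median log2 ratio of cKO to Ctrl was 0.71 over the 10 genes and 0.04 over all genes.

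**Figure D1:**
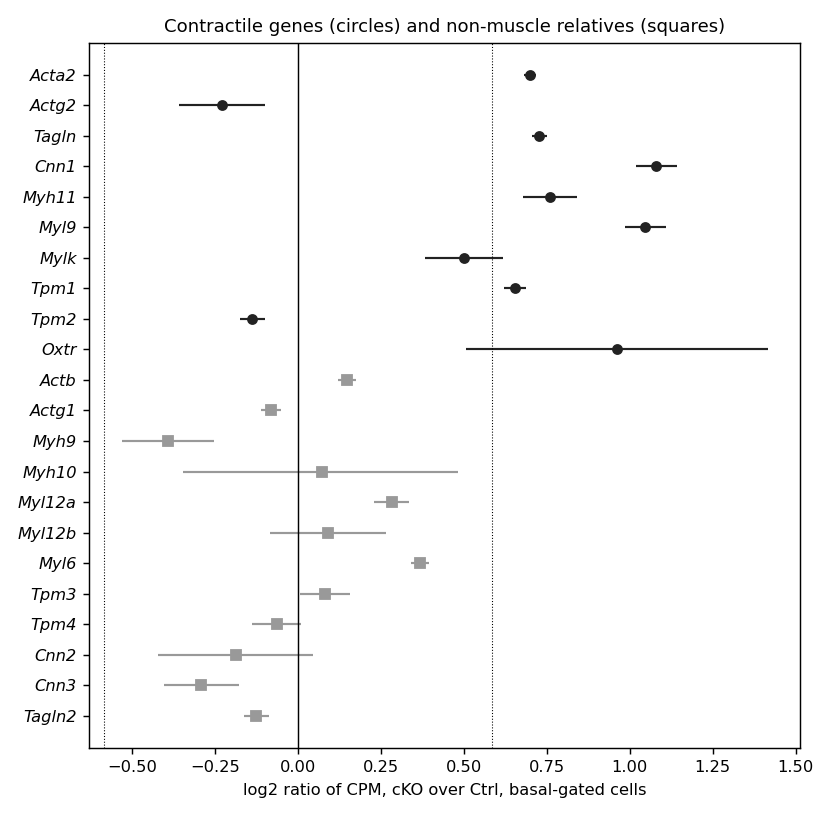
Log2 ratio of CPM, cKO over Ctrl, in basal-gated cells (horizontal axis) for the 10 contractile genes (black circles) and 12 non-muscle relatives (grey squares), with 95% counting intervals; dotted lines mark 1.5-fold. Cnn1 and Myl9 lie farthest to the right at 1.08 and 1.05, Actg2 and Tpm2 lie left of 0 at -0.23 and -0.14, the interval of Oxtr is the widest, and all squares lie between the dotted lines.

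The smooth-muscle actins parted. Acta2, alpha smooth-muscle actin and the main actin of the contractile filament, stood at 3885 CPM in Ctrl (95% interval 3850 to 3920.5) and 6308 in cKO (6250.1 to 6367), a 1.62-fold difference (1.60 to 1.64). Actg2, the gamma actin of visceral smooth muscle, stood at 121 CPM in Ctrl and 104 in cKO, 1.17-fold lower. Actb and Actg1, the cytoplasmic actins found in nearly every cell, were at 2307 and 2250.5 CPM in Ctrl and 2554 and 2128 in cKO. Thus Acta2 was the most abundant actin of these cells in both libraries.

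The actin-binding proteins Tagln and Cnn1 were both higher in the cKO library. Tagln, which encodes transgelin (SM22), stood at 2490.5 CPM in Ctrl and 4122 in cKO, 1.66-fold (1.63 to 1.68). Cnn1, basic calponin, which restrains the actin-activated myosin motor, stood at 309.8 CPM in Ctrl and 655 in cKO, 2.11-fold (2.02 to 2.21). Only 1.42% of the 9511 genes had a higher ratio than Cnn1. The ubiquitous relatives did not share these ratios: Tagln2 was at 1336 CPM in Ctrl and 1225 in cKO, and Cnn3 at 163 and 134.

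Of the motor itself, the heavy chain and the regulatory light chain were at least 1.5-fold higher in cKO. The essential light chain, Myl6, was 1.29-fold higher (1974 CPM in Ctrl and 2546 in cKO). Myh11, the smooth-muscle myosin heavy chain, stood at 203 CPM in Ctrl and 344 in cKO (1.69-fold, 1.60 to 1.79). Myl9, the regulatory light chain whose phosphorylation starts contraction, stood at 321 and 663 CPM (2.07-fold, 1.98 to 2.16). Mylk, the kinase that phosphorylates it, stood at 109 and 154 CPM (1.41-fold, 1.30 to 1.53), an interval that spans the 1.5-fold line. Non-muscle myosin heavy chain Myh9 was lower in cKO, with 113 CPM in Ctrl and 86.2 in cKO.

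The tropomyosins, coiled-coil proteins that lie along actin filaments and govern access of myosin, also parted. Tpm1 stood at 1296 CPM in Ctrl and 2040.3 in cKO (1.57-fold, 1.54 to 1.61), whereas Tpm2 stood at 1315 and 1195 CPM, 1.10-fold lower. The pair was thus at nearly equal counts in the control library and unequal in the cKO library. The counts are read at the 3′ end of each gene and do not separate the many spliced forms of Tpm1.

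Oxtr, the oxytocin receptor through which milk ejection is triggered, was the scarcest of the 10. It gave 78 UMIs in Ctrl and 90 in cKO, which is 6.49 CPM (5.13 to 8.10) and 12.6 CPM (10.2 to 15.5). The difference was 1.95-fold, with an interval (1.42 to 2.67) that spans the 1.5-fold line. On the log2 scale the ratio was 0.96. Over the alternatives it ranged from 0.48, without cells holding perivascular or fibroblast UMIs, to 2.44, in cells with at most 1 Krt8 UMI. A UMI of Oxtr was seen in 6.65% of Ctrl and 8.03% of cKO basal-gated cells. In endothelial-gated cells 0 UMIs were seen in both libraries, where 3 counts would correspond to 1.25 and 0.278 CPM. The related vasopressin receptor Avpr1a had 0 UMIs in basal-gated cells of both libraries.

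These ratios shifted with the depth range of the cells compared. Among basal-gated cells with 10000 to 20000 UMIs (445 Ctrl and 186 cKO), 8 genes passed 1.5-fold, Mylk included, and Actg2 (log2 0.12) and Tpm2 (log2 0.12) changed sign. Among cells with 5000 to 10000 UMIs the count was 6 and Tagln, at log2 0.58, lay just inside the line. With each cell weighted equally (the mean over cells) Acta2 was at log2 0.55 and also inside it.

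The rest of the contractile machinery is given by list, beside the 7.52% of all genes higher and 6.93% lower. Of 13 listed filament and attachment proteins, 12 had at least 50 UMIs, 1 was at least 1.5-fold higher in cKO, a share near that of all genes, none was lower, and the median log2 ratio was 0.23. That 1 was Synpo2, a Z-disc and dense-body protein, at 3.50 CPM in Ctrl and 6.04 in cKO. Its interval, 1.10- to 2.71-fold, spans the 1.5-fold line. Smtn (smoothelin) stood at 86.6 and 112 CPM, Cald1 (caldesmon, an actin-binding brake on myosin) at 793 and 679, and Lmod1 (leiomodin, which nucleates actin) at 27.8 and 26.9. Des, the muscle intermediate filament gene, had 5 UMIs in Ctrl and 2 in cKO.

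Of 20 genes of calcium and force signalling, 19 had at least 50 UMIs, 5 were at least 1.5-fold higher in cKO and 1 was lower, with a median log2 ratio of 0.03, close to the 0.04 of all genes. Ppp1r14a, which encodes CPI-17, an inhibitor of the phosphatase that relaxes smooth muscle, went from 3.33 to 12.2 CPM (3.67-fold, 2.49 to 5.48). Calm2, which encodes calmodulin, stood at 709 CPM in Ctrl and 1140 in cKO. Kcnma1, Plcb1 and Ppp1r12b were the others above the line, all under 12 CPM. Their intervals, 1.16- to 3.53-fold, 1.42 to 2.76 and 1.14 to 2.91, all span the 1.5-fold line. Cacna1c, the L-type calcium channel, was the lower one, at 4.41 CPM in Ctrl and 2.81 in cKO, with an interval that includes no difference (log2 -1.47 to 0.11).

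SRF and its partners were present at low levels and none of the 4 with at least 50 UMIs passed 1.5-fold. Srf stood at 16.6 CPM in Ctrl and 14.5 in cKO, and its cofactors Mkl1 at 11.9 and 15.2 and Mkl2 at 14.1 and 13.1. Myocd, the SRF cofactor of cardiac and smooth muscle, had 0 UMIs in basal-gated cells of either library. Of 14 non-muscle relatives of the members (cytoplasmic actins, myosins, tropomyosins, calponins), 12 had at least 50 UMIs, none passed 1.5-fold, and the median log2 ratio was 0.00.

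In contrast with the differences between libraries, the separation of basal-gated from luminal-gated cells was large in each library alone. In Ctrl, 9 of the 10 genes were at least 4-fold above luminal-gated cells, and in cKO 10 of 10, against 6.00% and 5.73% of all genes with at least 50 UMIs. Acta2 stood at 25.9 CPM in all luminal-gated cells of Ctrl and 31.2 of cKO, so that basal-gated cells were 150-fold (143 to 157) and 202-fold (194 to 211) above them. Myh11 was 137- and 228-fold higher, Myl9 119- and 241-fold, Cnn1 120- and 170-fold, Tagln 90.8- and 93.8-fold, and Oxtr 50.5-fold (26.0 to 109) and 50.7-fold (31.0 to 87.0). Tpm2 was 63.4-fold higher in Ctrl and 40.5-fold in cKO, the one gene whose CPM ratio to luminal cells was smaller in cKO.

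**Figure D2:**
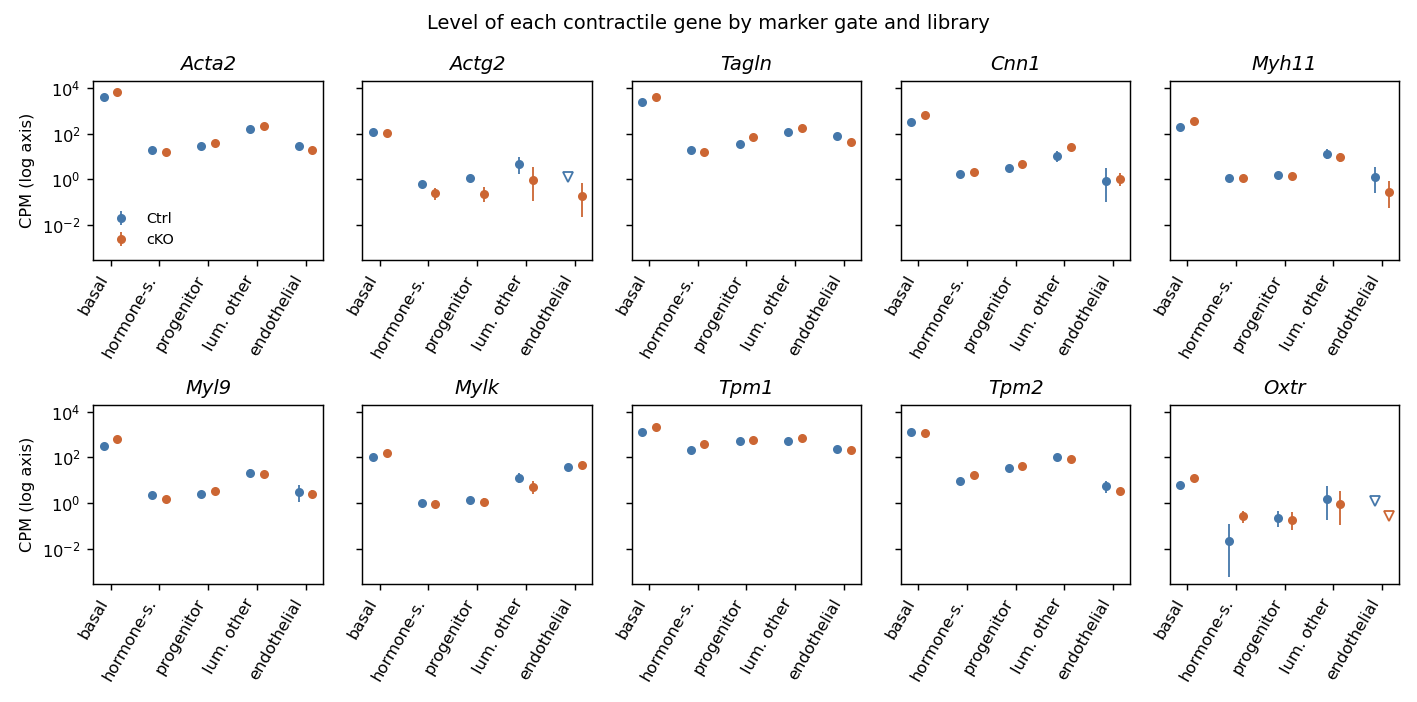
Level in CPM (log axis) of each of the 10 genes in basal-gated, luminal (hormone-sensing, progenitor and other) and endothelial-gated cells of the Ctrl (blue) and cKO (orange) libraries, with 95% counting intervals; open triangles mark the level of 3 counts where no UMI was seen. Among the gates plotted, basal-gated cells are highest for every gene, with Acta2 at 3885 and 6308 CPM there and at 19.4 and 16.5 in hormone-sensing-gated cells, and Tpm1 is the flattest.

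Luminal-gated cells that met neither the hormone-sensing nor the progenitor condition (108 in Ctrl, 258 in cKO) were nearer to the basal gate in summed level. Acta2 stood at 166 and 211 CPM, Tagln at 119 and 184 and Tpm2 at 107 and 81.5. These sums came from a minority of the cells. An Acta2 UMI was seen in 22.2% and 17.1% of them, and 2 cKO cells held 48.3% of the cKO Acta2 UMIs. The cells were also shallow, with medians of 8952.5 and 6080 UMIs, against 29021 and 16249.5 in all luminal-gated cells.

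Tpm1 was the exception of the set. It stood at 359 CPM in luminal-gated cells of Ctrl and 471 of cKO, so that basal-gated cells were 3.61-fold (3.54 to 3.69) and 4.34-fold (4.25 to 4.42) above them. With TMM scaling, which moves the median of all genes by -0.14 in cKO, its ratio there was 3.95. Among luminal cells, Tpm1 was lower in hormone-sensing cells (220 CPM in Ctrl, 367 in cKO) than in progenitors (545 and 594).

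Mylk was the exception against endothelium. Endothelial-gated cells held 39.5 CPM in Ctrl (100 cells) and 45.8 in cKO (467 cells), and basal-gated cells stood only 2.74-fold (2.23 to 3.42) and 3.35-fold (3.01 to 3.73) above them. Tpm1 came next, with 221 and 216 CPM in endothelial-gated cells. The background at 4-fold above endothelial-gated cells was 11.0% in Ctrl and 8.43% in cKO. The perivascular gate held only 4 Ctrl and 8 cKO cells. Its Acta2 stood at 2472 and 1110.0 CPM, its Myl9 at 2255 and 701 and its Tagln at 4206 and 1714. In Ctrl its Tagln, Myh11, Myl9, Mylk, Tpm1 and Tpm2 lay above the basal-gated cells, and in cKO only Myl9 did. Cnn1, Actg2 and Oxtr had 0 UMIs in those cells, where 3 counts would correspond to 130 and 58.4 CPM. That is above the Oxtr level of basal-gated cells in both libraries, and in Ctrl also above their Actg2 level (121 CPM). Those 0 values are therefore not informative.

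Most Acta2 and Tagln UMIs of luminal-gated cells sat in few cells. In Ctrl, the top 1% of luminal-gated cells (22 of 2201, ranked by UMIs of the gene) held 64.1% of the Acta2 UMIs and 57.5% of the Tagln UMIs, and in cKO the top 38 of 3870 held 74.1% and 69.3%. The same shares of Tpm1 were 6.52% and 6.86%, and those of Tpm2 lay between at 38.2% and 21.5%. Tpm2 was seen in 18.5% of Ctrl and 26.3% of cKO luminal-gated cells. The median luminal-gated cell had no Acta2 UMI, and its Tpm1 level was 2.47 per 10000 UMIs in Ctrl and 3.36 in cKO. For every 100 Acta2 UMIs, basal-gated cells held 64.1 (Ctrl) and 65.3 (cKO) of Tagln and 33.4 and 32.3 of Tpm1, while luminal-gated cells held 106 and 141 of Tagln and 1385 and 1508 of Tpm1. How many of these luminal-gated cells are pairs of cells caught together was not tested; the doublet caller had marked 9 Ctrl and 58 cKO cells, which were removed.

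Between the libraries, the luminal gates are given one by one; differences between gates were not tested. In hormone-sensing-gated cells 8 of the 10 genes had at least 50 UMIs; 2 were at least 1.5-fold higher in cKO and 1 was lower, where 11.3% of all genes were higher and 16.7% lower. The higher ones were the tropomyosins, Tpm1 at 220 CPM in Ctrl and 367 in cKO (1.67-fold) and Tpm2 at 9.53 and 16.9 (1.77-fold), and the lower one was Myl9, at 2.32 and 1.47. In progenitor-gated cells 8 genes had at least 50 UMIs, 1 was at least 1.5-fold higher and 0 lower, against 7.39% and 12.9% of all genes. That gene was Tagln, at 34.4 CPM in Ctrl and 73.5 in cKO (2.13-fold, 1.99 to 2.29). The top 9 Ctrl and 14 cKO progenitor-gated cells held 56.3% and 68.8% of these UMIs, and without them Tagln was at 15.2 and 23.2 CPM, 1.52-fold. With TMM scaling, which moves the median of all genes by 0.11 in this gate, Cnn1 and Myl9 passed the line too (both log2 0.62), and in hormone-sensing-gated cells Myl9 no longer did (log2 -0.57). In the other luminal-gated cells Cnn1 was 2.37-fold higher in cKO (14 and 54 UMIs), Tagln 1.54-fold, Tpm1 1.46-fold and Acta2 1.27-fold. In the same cells Mylk stood at 13.1 CPM in Ctrl and 5.18 in cKO (17 and 11 UMIs), Tpm2 at 107 and 81.5, Myh11 at 13.1 and 9.42, and Myl9 at 21.5 and 18.8, while Actg2 and Oxtr had at most 6 UMIs per library.

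The share of basal-gated cells with a UMI differed widely between members. A UMI of Acta2 was seen in 98.7% of Ctrl and 96.9% of cKO basal-gated cells, of Tagln in 97.2% and 96.0%, of Cnn1 in 75.1% and 81.5%, of Myh11 in 65.1% and 69.3%, and of Actg2 in 44.8% and 26.0%. Because the cKO cells were shallower, every cell was also thinned to 1000 UMIs, which left out 5 Ctrl and 0 cKO basal-gated cells. The thinned shares were 84.8% and 85.0% for Acta2 and 73.1% and 78.9% for Tagln, whose order was thus the reverse of the unthinned one. They were 22.8% and 36.7% for Cnn1, 15.6% and 24.7% for Myh11, and 23.7% and 37.4% for Myl9. For Tpm2 they were 66.0% and 58.5%, and for Actg2 9.56% and 6.36%. In endothelial-gated cells, median depths 20793 and 21572 UMIs, the unthinned share with Acta2 was 13.0% and 12.6% and the thinned share 2.37% and 1.61%. For Acta2 the thinned share of cells thus hardly differed between libraries, while the level over summed UMIs differed 1.62-fold. The share weights each cell equally and the summed level does not. With each cell weighted equally, Acta2 stood at 3710 CPM in Ctrl and 5445 in cKO.

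Every basal-gated cell held a UMI of at least 1 of the 10 genes. The sum of the 10 genes had its lowest value at 4.61 per 10000 UMIs in Ctrl and 5.61 in cKO, and only 2.82% and 3.19% of cells were under 20. The lower end of the distribution was similar in the 2 libraries, with 10th percentiles of 32.2 in Ctrl and 35.8 in cKO. The upper end was farther apart: medians were 78.4 and 104, and 90th percentiles 179 and 284. Acta2 alone showed the same shape, with 10th percentiles of 6.84 and 5.14, medians of 29.5 and 36.2 and 90th percentiles of 74.6 and 128 per 10000 UMIs. Tagln stood at 2.96 and 3.49 at the 10th percentile and at 50.8 and 84.8 at the 90th. By contrast Tpm1 was higher in cKO at each of these points, with 10th percentiles of 4.49 in Ctrl and 6.20 in cKO, medians of 11.6 and 17.3 and 90th percentiles of 22.5 and 38.9.

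**Figure D3:**
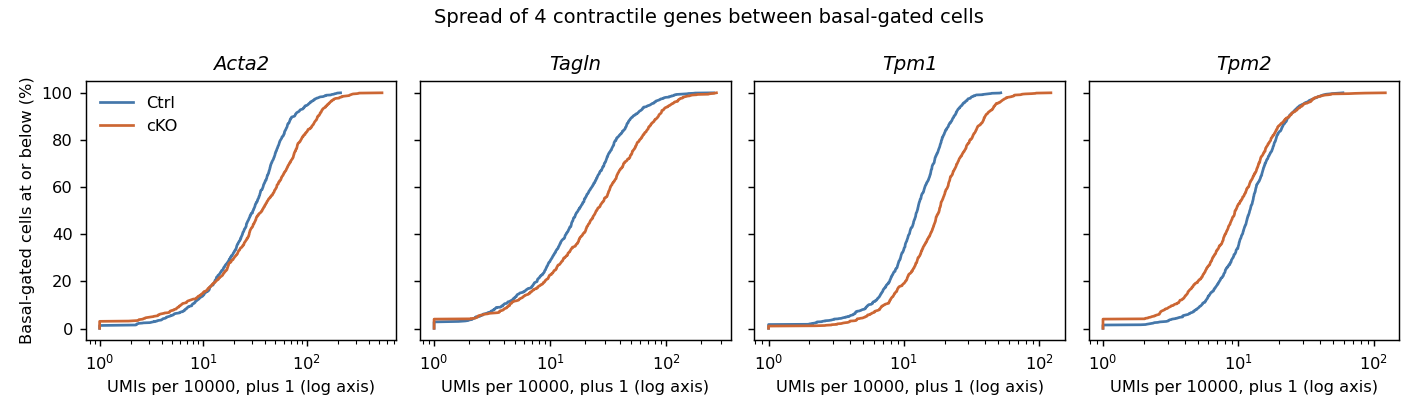
Cumulative share of basal-gated cells (vertical axis, percent) at or below a level (UMIs per 10000 UMIs of the cell, plus 1, log axis) of Acta2, Tagln, Tpm1 and Tpm2, with Ctrl in blue and cKO in orange. The cKO cells reach higher values of Acta2 and Tagln at the top (90th percentiles of 128 and 84.8 against 74.6 and 50.8) while the curves lie close together at the bottom, and the Tpm2 curves meet at the top (90th percentiles of 22.7 and 22.8).

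The genes differed in how unevenly they were spread over basal-gated cells. With counting noise removed, the coefficient of variation (SD divided by mean) was 0.487 in Ctrl and 0.645 in cKO for Tpm1, 0.572 and 0.826 for Tpm2, 0.841 and 1.01 for Acta2, 1.02 and 1.02 for Tagln, and 1.10 and 1.01 for Cnn1. Of the cytoplasmic actins, Actb stood at 0.568 and 0.586 and Actg1 at 0.918 and 0.944, and the gate keratin Krt14 stood at 0.556 and 0.467. In Ctrl Acta2 thus lay between Actb and Actg1. Actg2 stood at 1.64 in Ctrl and 2.47 in cKO, the latter from only 738 UMIs, and the top 10% of cells held 56.0% of its UMIs in Ctrl and 72.0% in cKO. Oxtr, with its 78 and 90 UMIs, is left out here.

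Correlations across basal-gated cells varied widely between pairs of members. After thinning to 3000 UMIs (957 Ctrl and 806 cKO cells), the correlation of log counts between Acta2 and Tagln was 0.62 in Ctrl and 0.78 in cKO, between Acta2 and Tpm2 0.49 and 0.61, and between Acta2 and Tpm1 0.17 and 0.18. With the sum of the other 9, Acta2 stood at 0.66 and 0.76, Mylk at 0.20 and 0.39, Tpm1 at 0.19 and 0.20 and Oxtr at 0.04 and 0.13. The median over all 45 pairs was 0.17 in Ctrl and 0.32 in cKO. These values carry counting noise, which is larger for scarce genes, and most members are more abundant in cKO. With counting noise removed, over the 9 genes without Oxtr, the median over 36 pairs was 0.60 in Ctrl and 0.63 in cKO. On that scale Acta2 went with Myl9 at 0.85 and 0.89, with Tpm2 at 0.84 and 0.87, and with Tpm1 at 0.23 and 0.24. All are descriptions across cells of 1 library, which share their processing.

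**Figure D4:**
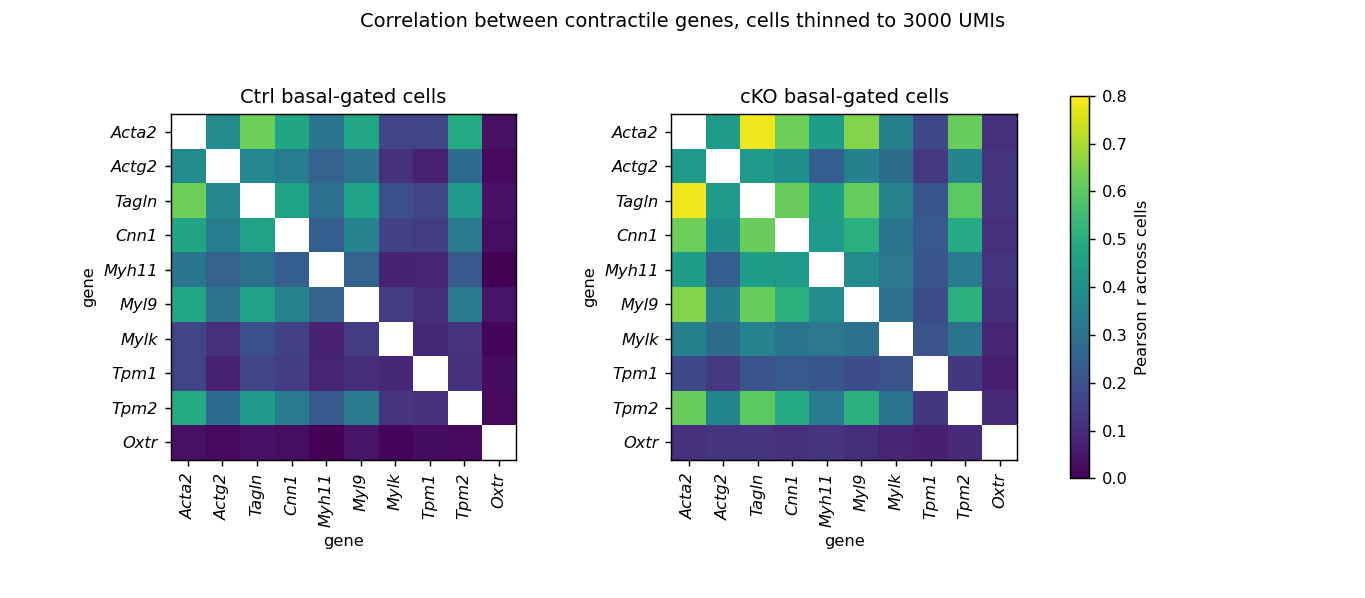
Pearson correlation across basal-gated cells, thinned to 3000 UMIs, between each pair of the 10 genes (both axes) in Ctrl (left) and cKO (right); white squares are a gene with itself. The Acta2 and Tagln pair is the brightest at 0.62 and 0.78, and the rows of Tpm1 and Oxtr are the darkest.

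Outside the set, Myl6, the essential light chain that sits beside Myl9 on the myosin neck, followed the summed members most closely among 1105 genes, with a correlation of 0.56 in Ctrl and 0.66 in cKO. Dstn, the actin-severing protein destrin, came next at 0.39 and 0.45, then Csrp1, a LIM protein of smooth muscle, at 0.34 and 0.54, and S100a6 at 0.32 and 0.42. The median over those genes was 0.00 in Ctrl and -0.02 in cKO. Ctsl, a lysosomal protease, and Slpi, a secreted protease inhibitor, went the other way at -0.22 and -0.33 and at -0.21 and -0.25. The summed members were also correlated with the depth of the cell (with log10 UMIs, 0.20 in Ctrl and 0.36 in cKO). Of the basal keratins, Krt14 stood at 0.03 and 0.12, Krt5 at 0.08 and 0.18 and Krt17 at 0.27 and 0.26. The 95th percentile over the 1105 genes was 0.11 in Ctrl and 0.14 in cKO.

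Across the 10 profiles of 5 gates in 2 libraries, the gene whose levels were most like the mean of the members was Sbspon, with a correlation of 0.996 over log levels among 13144 genes. Col17a1 (0.993), a hemidesmosome collagen, Gtf2f2 (0.993), Kirrel (0.988), Medag (0.988), Speer4e (0.988), Il11 (0.987) and Lmod1 (0.987) came after it. None of the 8 was at least 1.5-fold higher in cKO basal-gated cells, which is near the 7.52% of all genes with at least 50 UMIs. Sbspon stood at 31.2 CPM in Ctrl and 37.3 in cKO. Of the members themselves, Acta2 and Myl9 were nearest to their common profile (both 0.996), and Tpm1 (0.886) and Mylk (0.670) farthest from it.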

How the data were processed

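Sequencing libraries of mammary cells, 2 in all, were Chromium 3′ v2 libraries per the labels. The authors deposited counts of UMIs per gene and barcode without normalization. The submitters' processing notes name Cell Ranger 2 with the mm10 build; the headers carry software version 3.0.0. The files held 4237 Ctrl and 6257 cKO barcodes with 95520633 and 103668011 UMIs.

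Cells with at least 500 genes and at most 10% mitochondrial UMIs were kept (3416 and 5493), and Scrublet calls (scanpy 1.11.5, seed 1, expected 0.8% per 1000 cells) were removed, which left 3407 and 5435. Basal-gated cells have at least 1 Krt5 and 1 Krt14 UMI, Krt5 plus Krt14 at 20 or more per 10000 UMIs and above Krt8 plus Krt18. Luminal-gated cells have an Epcam UMI and Krt8 plus Krt18 at 10 or more per 10000 and above Krt5 plus Krt14, and were split by Prlr, Esr1 and Pgr against Aldh1a3, Kit and Elf5; other gates used endothelial, perivascular, fibroblast and immune genes. Cells that met 2 or more gates (15 and 76) and ungated cells (89 and 156) were left out.

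UMIs were summed per gate and library and scaled to 1000000 (CPM). Intervals are exact at 95% (Poisson for levels, conditional binomial for ratios). Genes with at least 50 UMIs over both sides entered a comparison, and a difference was counted past 1.5-fold between libraries and 4-fold between gates. Noise was removed from spreads and correlations with factorial moments. The spreads and the ratio intervals were tested on simulated data, and the noise-removed correlations were not. The noise-removed pair correlations were added after the data were seen. All 10 members, the gate genes, and from each pathway list the 4 genes farthest from no difference and the 4 highest over luminal-gated cells were to be named; Calm2 and other list genes named beyond that were chosen after their values were seen. The members and lists were chosen with earlier results of these data known. Followers are the genes whose correlation with the members' sum was highest in the library where it was lower. Genes were placed with GENCODE M21. Actin, tropomyosin and some other genes have near relatives, and how reads shared between copies were counted is not given in the sources used here.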

Additional observations from a re-analysis of the deposited data

Results flagged for a closer look

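Several members differed in opposite directions between gates, with counting intervals under total scaling that lay on either side of no difference; the difference between gates was not tested, since each gate is 1 value per library. Acta2, with a log2 ratio of cKO to Ctrl of 0.70 in basal-gated cells, stood at -0.23 in hormone-sensing-gated luminal cells (861 and 743 UMIs) and at -0.71 in endothelial-gated cells (73 and 200 UMIs). In hormone-sensing-gated cells the top 1% of cells held 63.2% of the Acta2 UMIs in Ctrl and 59.4% in cKO. Without them the log2 ratio was -0.07 (-0.31 to 0.16), and with TMM scaling of all cells it was -0.14 (-0.28 to 0.01), both intervals including no difference. Of the endothelial Acta2 UMIs, 1 of 100 Ctrl cells held 38.4% and 4 of 467 cKO cells held 52.5%. Without that 1 Ctrl cell Ctrl was at 19.1 CPM, against 18.6 over all cKO cells, which is nearly the same level. With the top cells of both libraries left out, Acta2 was at 19.1 and 8.92 CPM, a log2 ratio of -1.10.

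Tagln, at 0.73 in basal-gated cells, stood at -0.35 in hormone-sensing-gated and -0.86 in endothelial-gated cells. Without the top 1% of cells these were -0.15 (-0.38 to 0.08) and -1.52. Myl9, at 1.05 in basal-gated cells, stood at -0.66 in hormone-sensing-gated cells, from 103 and 66 UMIs, and at -0.41 (-1.28 to 0.44) without the top 1%. Tpm2 was turned the other way: -0.14 in basal-gated cells, 0.83 in hormone-sensing-gated and 0.40 in progenitor-gated cells, and 1.43 and 0.67 in these gates without the top 1%.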

How the results depend on the processing

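No paired analysis was possible because each group holds 1 library, and leaving out a replicate was not possible for the same reason. The count of members at least 1.5-fold higher in cKO was 7 in all settings run (gate thresholds, mitochondrial limit, doublet calls kept, TMM scaling, totals without the members, cells without perivascular or fibroblast UMIs, no minimum of UMIs) except 6 with the mean over cells, where Acta2 was at log2 0.55, and 6 and 8 in the ranges of 5000 to 10000 and 10000 to 20000 UMIs. The depth ranges, a limit of 1 Krt8 UMI, and for luminal and endothelial ratios TMM scaling and leaving out the top 1% of cells were chosen after seeing the data. With the Krt8 limit, which left 111 Ctrl and 166 cKO cells, 1 member was at least 1.5-fold lower, Actg2 at log2 -0.70, and Tagln stood at 0.56. Without cells holding perivascular or fibroblast UMIs, which left 354 Ctrl and 590 cKO cells, Oxtr was at 0.48 and Mylk at 0.83. Over 14 settings Acta2 ranged from 0.55 to 0.96, Actg2 from -0.70 to 0.12, Tagln from 0.56 to 1.06, Cnn1 from 0.95 to 1.39, Myh11 from 0.70 to 1.04, Myl9 from 0.89 to 1.24, Mylk from 0.38 to 0.83, Tpm1 from 0.60 to 0.79, Tpm2 from -0.19 to 0.12 and Oxtr from 0.48 to 2.44. The median share of cells with a UMI over members went from 23.2% to 47.3% in Ctrl and from 37.1% to 65.0% in cKO when cells were thinned to 3000 instead of 1000 UMIs. The median coefficient of variation went from 1.05 to 1.002 in Ctrl and from 1.02 to 0.962 in cKO with cells of at least 5000 UMIs, and the median pair correlation from 0.17 to 0.25 in Ctrl and from 0.32 to 0.39 in cKO at 5000 UMIs. With no minimum of UMIs, 19.2% of all genes were at least 1.5-fold higher and 19.8% lower.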

Other observations

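Cells that met no gate, 89 in Ctrl and 156 in cKO, also carried the contractile genes. Acta2 stood there at 2368 CPM in Ctrl and 1778 in cKO, Tagln at 1961 and 1361, and Tpm1 at 1073 and 1661, so that the order of the libraries for Acta2 and Tagln was the reverse of that in basal-gated cells.

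The fibroblast gate held 5 Ctrl cells with Acta2 at 7497 CPM, seen in 4 of them, and Actg2 at 1943, seen in 2. It held 10 cKO cells with Acta2 at 256 CPM, seen in 5 of them, and no Actg2 UMI. These levels thus rest on a few cells.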
